A study of Homo sapiens with 9 samples.

Results

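The 10 genes described here encode proteins of the BCL2 family, which sets whether a cell survives or dies by the mitochondrial route of apoptosis. They were taken by name from the gene symbols of the authors' deposited table and joined by Ensembl identifier to the count file of each library. All 10 were found, each with 1 identifier, among 64253 identifiers in the count files, and all 10 were among the 16561 genes that passed the low-count filter and were tested. Of these, 4 are survival genes (BCL2, BCL2L1, BCL2L2 and MCL1), 1 is an effector of the outer mitochondrial membrane (BAK1), and 5 are BH3-only genes (BCL2L11, BID, BMF, PMAIP1 and BAD).

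Survival proteins of this family hold the effectors BAK and BAX in check. BH3-only proteins respond to stress by binding the survival proteins or the effectors, and active effectors permeabilise the outer mitochondrial membrane and release cytochrome c, which leads to caspase activation. Senescent cells are known for resistance to apoptosis and for a dependence on survival proteins of this family, among them BCL-XL, the main product of BCL2L1.

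RNA was sequenced from IMR90 cells, a line of normal human fetal lung fibroblasts, in 3 groups of 3 libraries lettered a to c. Control cells carried the lentiviral vector pLKO.1 alone, which the sample labels call empty and the treatment protocol calls GFP. The shRRM2 cells carried a hairpin against RRM2, a subunit of the ribonucleotide reductase that makes deoxynucleotides, and are labelled senescent. The shRRM2/shp16 cells carried the RRM2 hairpin with a further one that targets p16, a brake on the cell cycle made from CDKN2A, and are labelled as having bypassed senescence. Culture was at 2% oxygen, cells had reached population doubling 30, the second virus was added 24 hours after the first, and puromycin selection at 3 ug/mL lasted 7 days. A group with only the p16 hairpin was not analysed here, so an effect of that hairpin by itself cannot be told apart from an effect on shRRM2 cells. Whether the replicates came from separate infections or dishes is not stated in the labels, so the p-values measure the spread between these libraries, which may be technical.

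Library totals ran from 15770895 to 24873291 gene counts. Of the unique reads, the share that fell in no annotated gene was 17.6% to 18.9% in control, 27.7% to 28.8% in shRRM2 and 23.5% to 24.4% in shRRM2/shp16. This share moved with the groups, and its part in the results was not tested. RRM2 stood at 485 ± 5.23 CPM (counts scaled to library size) in control, 62.1 ± 1.86 in shRRM2 and 177 ± 3.00 in shRRM2/shp16 (SD, n = 3 each), so the double hairpin group carried more RRM2 RNA than the group it is compared with. CDKN2A stood at 6.02 ± 0.11, 6.50 ± 0.46 and 4.28 ± 0.32 CPM in the same order. All 10 fibroblast markers were counted in every library. Their summed level was 37690 to 38860 CPM in control, 40760 to 41720 in shRRM2 and 28780 to 29440 in shRRM2/shp16. The markers did not move together. In shRRM2/shp16 against shRRM2, 1 of the 10 was higher, 5 were lower and 4 were not called (edgeR, adjusted p under 0.05). Of all tested genes, 31.9% were higher and 29.1% lower. FN1 fell there from 14830 to 6664 CPM, while COL3A1 rose from 1657 to 3631 CPM. The part of these shifts in the results was not tested. The 4 epithelial markers summed to at most 2.15 CPM and the 6 leukocyte markers to at most 5.97 CPM in any library, with KRT5, CD3E and MS4A1 at 0 in all 9. The 4 endothelial markers summed to 2.48 to 3.75 CPM in control and shRRM2 libraries and to 5.23 to 5.38 CPM in shRRM2/shp16, with CDH5 at 0 or 1 read. Of these, KDR was at 1.83, 1.32 and 3.58 CPM in control, shRRM2 and shRRM2/shp16. In the same order, VWF was at 0.63, 0.89 and 1.17 CPM and PECAM1 at 0.50, 0.90 and 0.56 CPM. In bulk RNA, fewer cells of a type and less RNA per cell cannot be told apart.

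Promoter sequence is shown for the 3 family members whose level changed at least 2-fold in some comparison, BCL2L11, BMF and BCL2L1. Each is the 250 bases before a RefSeq transcript start (GRCh38.p14), printed 5′ to 3′ on the strand of the gene, and capitals mark a match to a searched motif. BCL2L11 lies at chr2:111120664-111120913 on the plus strand, BMF at chr15:40108880-40109129 on the minus strand and BCL2L1 at chr20:31723964-31724213 on the minus strand. The BCL2L11 window lies inside the GENCODE span of the gene (111119378 to 111168447), so it is upstream of the RefSeq start but not of the GENCODE start.
BCL2L11: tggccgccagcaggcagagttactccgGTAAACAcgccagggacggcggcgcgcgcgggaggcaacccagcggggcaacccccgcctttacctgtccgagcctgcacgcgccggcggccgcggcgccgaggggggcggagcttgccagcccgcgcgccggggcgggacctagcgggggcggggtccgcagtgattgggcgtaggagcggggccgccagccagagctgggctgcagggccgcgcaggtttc
BMF: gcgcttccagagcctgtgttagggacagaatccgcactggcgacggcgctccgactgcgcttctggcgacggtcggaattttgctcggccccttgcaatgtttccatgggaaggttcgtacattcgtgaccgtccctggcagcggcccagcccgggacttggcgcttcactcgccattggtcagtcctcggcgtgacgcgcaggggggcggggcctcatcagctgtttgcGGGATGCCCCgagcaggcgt
BCL2L1: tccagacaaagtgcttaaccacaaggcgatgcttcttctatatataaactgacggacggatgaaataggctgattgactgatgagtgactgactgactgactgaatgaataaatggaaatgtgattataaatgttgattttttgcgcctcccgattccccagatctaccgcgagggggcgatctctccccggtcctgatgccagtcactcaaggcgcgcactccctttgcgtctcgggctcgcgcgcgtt
Both strands of each window were searched for the AP-1 motif TGANTCA, the FOXO motif GTAAACA, the E2F motif TTTCCCGC and an NF-kappaB motif of GGGA, any 4 bases and CC. The capitals in BCL2L11 are a FOXO match at bases -223 to -217 from the start, a motif held by 2.98% of all 35116 windows. FOXO factors are known activators of BCL2L11. The capitals in BMF are an NF-kappaB match at bases -20 to -11, a motif held by 22.6% of windows. NF-kappaB matches were also in windows of BCL2, BID and PMAIP1. The window of a second BMF start, not shown, held none of the 4 motifs, and neither did the first BCL2L1 window. AP-1 matches were in 6.57% and E2F matches in 1.39% of all windows and in none of the windows of the 8 members that the RefSeq table holds. MCL1 and BCL2L2 were not in that table. A match describes letters only and is no sign of binding.

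Of the 4 survival genes among the 10 members, BCL2L1 had the largest log2 fold change. BCL2L1 (ENSG00000171552, chromosome 20, 31664452 to 31723989, minus strand) was at 117, 115 and 121 CPM in control libraries a to c, at 180.5, 177 and 189 CPM in shRRM2, and at 81.0, 86.8 and 85.1 CPM in shRRM2/shp16. No library of one group overlapped another group: shRRM2 was highest and the double hairpin group lowest, below control. BCL2L1 rose 1.55-fold in shRRM2 over control (log2 fold change 0.63 ± 0.04 SE, edgeR quasi-likelihood test with Benjamini-Hochberg adjustment over all tested genes, adjusted p = 1.3e-19). It fell by 1.11 on the log2 scale in shRRM2/shp16 against shRRM2 (SE 0.04, adjusted p = 4.3e-28), and by 0.48 against control (SE 0.04, adjusted p = 7.7e-15). The antisense gene ABALON shares 43.0% of the exon bases of BCL2L1 and its identifier is not among those analysed here. The strand setting of the counting is not given in the sources used here, so reads from both strands may not have been told apart.

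MCL1 moved the other way from BCL2L1 in each of the same comparisons. MCL1 (ENSG00000143384, chromosome 1, 150574551 to 150579738, minus strand), whose short-lived protein binds BAK and BIM, was at 334, 356.5 and 358 CPM in control, 315, 313 and 329 CPM in shRRM2, and 422, 438 and 425.5 CPM in shRRM2/shp16. The double hairpin libraries were all above the other 6, and the shRRM2 libraries all below control. The fall in shRRM2 was small (log2 fold change -0.13 ± 0.03 SE, edgeR adjusted p = 2.7e-04), and the rise in shRRM2/shp16 was 0.43 ± 0.03 against shRRM2 (adjusted p = 1.6e-16) and 0.30 ± 0.03 against control (adjusted p = 6.3e-12). The fall was not called with limma on log2(RPKM + 0.1) from the deposited values (adjusted p = 0.451), but was called in the same fit without the column of shRRM2 library c, which does not match its count file (adjusted p = 0.0349).

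BCL2 (ENSG00000171791, chromosome 18, 63123346 to 63320128, minus strand), the founding survival gene of the family, was counted at only 45 to 126 reads. It was at 5.28, 4.86 and 5.24 CPM in control, 4.51, 2.65 and 2.81 CPM in shRRM2, and 2.38, 2.44 and 3.12 CPM in shRRM2/shp16. All control libraries were above the rest, and shRRM2 library a stood apart from b and c of its own group. BCL2 fell by 0.64 in shRRM2 (SE 0.16, edgeR adjusted p = 7.4e-04) and by 0.96 in shRRM2/shp16 against control (SE 0.17, adjusted p = 2.4e-06) on the log2 scale. Against shRRM2 the value in shRRM2/shp16 was -0.32 (95% interval -0.69 to 0.06, adjusted p = 0.136), which did not pass. That value depended on 1 library: it was -0.05 without shRRM2 library a and -0.46, with an adjusted p of 0.0485, without library b.

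BCL2L2 (ENSG00000129473, chromosome 14, 23298790 to 23311759, plus strand), which encodes the survival protein BCL-w, passed the main test in no comparison. It was at 48.4, 47.0 and 54.8 CPM in control, 50.9, 51.2 and 49.1 CPM in shRRM2, and 56.9, 53.5 and 51.2 CPM in shRRM2/shp16. The values lay close together, with control library c inside the range of the double hairpin group. The log2 fold change was 0.01 ± 0.05 SE in shRRM2 over control (edgeR adjusted p = 0.837), 0.10 ± 0.05 in shRRM2/shp16 over shRRM2 (adjusted p = 0.107) and 0.11 over control (95% interval 0.01 to 0.21, adjusted p = 0.0583). The last value was called in 11 of 20 alternatives. Its adjusted p was 0.0207 with at least 10 counts in every library, 0.0346 with only the 6 libraries compared, and 0.0139 to 0.0249 with limma in 5 settings. Without control library c it became 0.17 (adjusted p = 0.00655), and it also passed without shRRM2 library b (0.0465) or c (0.0443) and without shRRM2/shp16 library c (0.0206), and leaving out that last library brought the difference from shRRM2 to 0.14 (0.0433). The readthrough gene BCL2L2-PABPN1, which shares 19.4% of the exon bases, was counted at 5 to 14 reads.

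**Figure D1:**
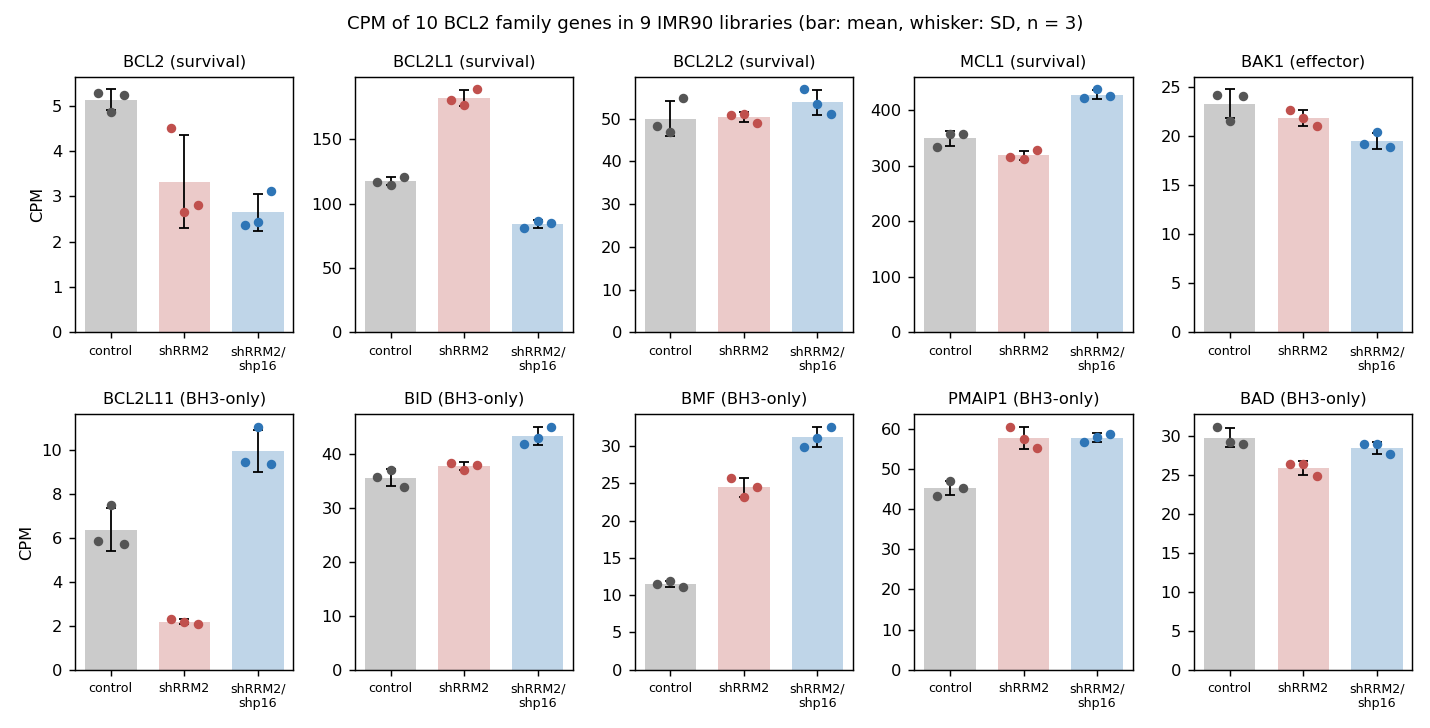
CPM of the 10 genes (vertical axes, each from 0) in the 3 groups (horizontal axes). Points are libraries a to c, bars the mean and whiskers the SD, n = 3. BCL2L1 peaks in shRRM2 at 177 to 189 CPM, BCL2L11 is lowest there at 2.07 to 2.29 CPM, and BMF rises from 11.1 to 12.0 CPM in control to 29.9 to 32.6 CPM in shRRM2/shp16.

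The plot of CPM by group shows several shapes: a peak in shRRM2 (BCL2L1), a dip there (MCL1, BCL2L11 and BAD), a stepwise course from control to shRRM2/shp16 (BMF and BID upward, BCL2 and BAK1 downward), a plateau in both hairpin groups (PMAIP1) and no clear course (BCL2L2). Of those steps, BID and BAK1 in shRRM2 against control and BCL2 in shRRM2/shp16 against shRRM2 did not pass the test.

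BAK1 (ENSG00000030110, chromosome 6, 33572547 to 33580293, minus strand) encodes the effector BAK. It was at 24.2, 21.6 and 24.1 CPM in control, 22.7, 21.9 and 21.1 CPM in shRRM2, and 19.2, 20.5 and 18.9 CPM in shRRM2/shp16. Control and shRRM2 overlapped, and the double hairpin libraries were below both. BAK1 fell by 0.26 on the log2 scale in shRRM2/shp16 against control (SE 0.07, edgeR adjusted p = 0.0011). Against shRRM2 it fell by 0.16 (SE 0.07, adjusted p = 0.0443), a call that was lost in 12 of 20 alternatives: the adjusted p was 0.17 with DESeq2, 0.148 without shRRM2 library a, 0.0827 without b, 0.116 without shRRM2/shp16 library a, 0.149 without c and 0.0543 without control library c. In shRRM2 against control the value was -0.09 ± 0.07 SE (adjusted p = 0.231).

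Among the BH3-only genes, BCL2L11 changed most. BCL2L11 (ENSG00000153094, chromosome 2, 111119378 to 111168447, plus strand) encodes BIM, which binds every survival protein of the family and can activate BAX and BAK directly. It was at 5.87, 7.49 and 5.72 CPM in control, 2.29, 2.19 and 2.07 CPM in shRRM2, and 9.46, 11.1 and 9.35 CPM in shRRM2/shp16, from 36 to 222 reads a library. The groups did not overlap, and shRRM2 was lowest and the double hairpin group highest. BCL2L11 in shRRM2 fell to 34.5% of the control level (log2 fold change -1.54 ± 0.16 SE, edgeR adjusted p = 1.9e-11). In shRRM2/shp16 it rose 4.57-fold over shRRM2 (2.19 ± 0.14, adjusted p = 1.9e-17) and also rose over control (0.65 ± 0.11, adjusted p = 1.9e-06).

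The long noncoding RNA gene MIR4435-2HG lies across BCL2L11 on the opposite strand and shares 10.9% of its exon bases. With no strand setting given, reads of these genes in the shared bases may not have been told apart, and the effect on their counts was not tested. MIR4435-2HG was at 76.5 ± 3.34 CPM in control, 94.9 ± 1.70 in shRRM2 and 36.5 ± 1.18 in shRRM2/shp16 (SD, n = 3 each), so its order of groups was the reverse of that of BCL2L11. It rose by 0.31 ± 0.04 (SE) in shRRM2 over control (edgeR adjusted p = 1.3e-08). In shRRM2/shp16 it fell by 1.38 against shRRM2 (adjusted p = 4.1e-28) and by 1.06 against control (adjusted p = 6.8e-24).

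BMF rose in both hairpin groups. BMF (ENSG00000104081, chromosome 15, 40087890 to 40108892, minus strand), whose product is held at the actin-based cytoskeleton and released by loss of attachment, was at 11.5, 12.0 and 11.1 CPM in control, 25.7, 23.1 and 24.6 CPM in shRRM2, and 29.9, 31.1 and 32.6 CPM in shRRM2/shp16. No group overlapped another. The log2 fold change was 1.08 ± 0.07 SE in shRRM2 over control (edgeR adjusted p = 1.3e-16), 0.35 ± 0.06 in shRRM2/shp16 over shRRM2 (adjusted p = 5.2e-06) and 1.43 ± 0.07 over control (adjusted p = 5e-22).

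PMAIP1 rose by a like amount over control in both hairpin groups. PMAIP1 (ENSG00000141682, chromosome 18, 59899948 to 59904306, plus strand) encodes NOXA, a p53 target that binds MCL1. It was at 43.3, 46.8 and 45.3 CPM in control, 60.5, 57.5 and 55.1 CPM in shRRM2, and 56.6, 58.0 and 58.8 CPM in shRRM2/shp16. All 6 hairpin libraries were above control, and those of the hairpin groups overlapped each other. The rise was 0.36 ± 0.05 SE in shRRM2 (edgeR adjusted p = 2.5e-08) and 0.36 ± 0.05 in shRRM2/shp16 (adjusted p = 1e-08). Between the hairpin groups the value was 0.00 with a 95% interval of -0.09 to 0.10 (adjusted p = 0.964).

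BID and BAD varied less. BID (ENSG00000015475, chromosome 22, 17734138 to 17774770, minus strand), which caspase-8 cleaves to link death receptors to mitochondria, was at 35.8, 37.1 and 33.9 CPM in control, 38.4, 37.0 and 38.1 CPM in shRRM2, and 41.9, 43.0 and 45.1 CPM in shRRM2/shp16. The double hairpin libraries were above the other 6, while control and shRRM2 overlapped. BID rose in shRRM2/shp16 by 0.20 ± 0.05 SE over shRRM2 (edgeR adjusted p = 0.0012) and by 0.28 ± 0.05 over control (adjusted p = 7.5e-06), and in shRRM2 against control its value was 0.09 ± 0.05 (adjusted p = 0.17).

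BAD (ENSG00000002330, chromosome 11, 64269830 to 64284704, minus strand), which survival kinases such as AKT and PIM inactivate by phosphorylation, was at 31.3, 29.2 and 29.1 CPM in control, 26.5, 26.5 and 25.0 CPM in shRRM2, and 29.1, 28.98 and 27.7 CPM in shRRM2/shp16. The shRRM2 libraries were the lowest 3. BAD fell by 0.21 in shRRM2 against control (SE 0.06, edgeR adjusted p = 0.0031). In shRRM2/shp16 it rose by 0.14 ± 0.06 over shRRM2 (adjusted p = 0.0462), and against control its value was -0.07 ± 0.06 (adjusted p = 0.317). The rise was lost in 10 of 20 alternatives: the adjusted p was 0.159 with DESeq2 and 0.0553, 0.054, 0.164, 0.103 and 0.1 without shRRM2 library a, b or c or shRRM2/shp16 library a or b. GPR137, on the opposite strand, shares 23.7% of the exon bases of BAD and was at 28.3 ± 1.92, 30.1 ± 1.72 and 34.7 ± 1.52 CPM in control, shRRM2 and shRRM2/shp16 (SD, n = 3 each). Here too, reads from both strands may not have been told apart.

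Counted over the family, 7 of 10 members passed the test in shRRM2 against control, where 60.9% of all tested genes did. Of these, 3 were higher and 4 lower, beside 29% and 31.8% of all genes, and the median log2 fold change of the 10 was -0.04 beside 0.00 over all genes. In shRRM2/shp16 against shRRM2, 7 of 10 passed beside 61.1% of all genes, 5 higher and 2 lower beside 31.9% and 29.1%, with a median of 0.12 beside 0.01. In shRRM2/shp16 against control, 8 of 10 passed beside 62.4%, 5 higher and 3 lower beside 30% and 32.4%, with a median of 0.20 beside 0.01. These shares were near those of all genes, so the number of members that passed is no result about the family. The 3 comparisons share libraries.

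**Figure D2:**
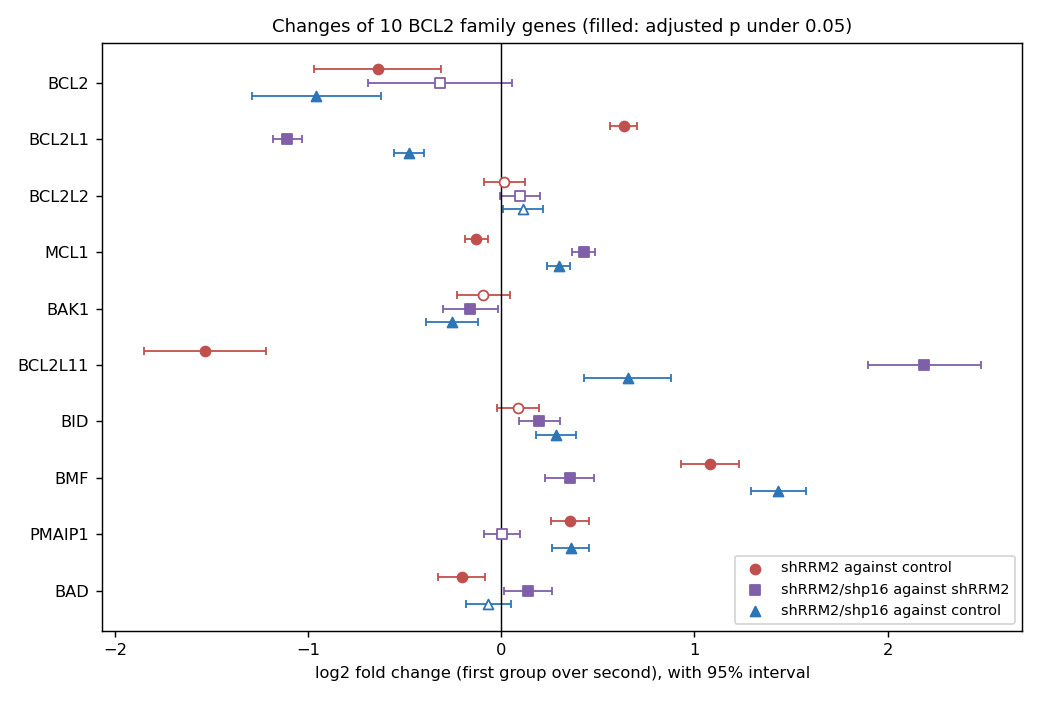
Log2 fold change (horizontal axis) of each gene (vertical axis) in the 3 comparisons, with 95% intervals from the edgeR fit of 9 libraries. Filled symbols passed an adjusted p of 0.05. BCL2L11 spans the widest range, from -1.54 to 2.19, and BCL2L2 has no filled symbol.

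The plot of fold changes sets the comparisons side by side. BCL2L11, MCL1 and BAD had values below 0 in shRRM2 against control and above 0 in shRRM2/shp16 against shRRM2, and BCL2L1 had the reverse. BMF was above 0 and BCL2 below 0 in all 3. In the authors' deposited table for shRRM2/shp16 over shRRM2, the log2 fold change was 2.04 for BCL2L11, -0.98 for BCL2L1, 0.45 for MCL1 and 0.58 for BMF, with q-values of 4.44e-04, 4.44e-04, 8.38e-04 and 0.0394. Whether those values were made with the deposited column of shRRM2 library c, which does not match its count file, is not known. The q-values of the other 6 members in the authors' deposited table ran from 0.118 for BAK1 to 0.981 for PMAIP1.

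Levels can be compared between genes only per gene length. On the RPKM scale (depth-scaled reads per kilobase of gene), MCL1 had the highest level of the family in every group: 79.9 ± 3.07 in control, 73.0 ± 1.94 in shRRM2 and 98.0 ± 1.91 in shRRM2/shp16 (SD, n = 3 each). BCL2L1 came next in control (35.4 ± 0.90 RPKM) and shRRM2 (54.9 ± 1.89), while in shRRM2/shp16 BCL2L1 (25.4 ± 0.90) and PMAIP1 (25.8 ± 0.49) overlapped. In control, the order below BCL2L1 was PMAIP1 (20.2 RPKM), BAD (17.5), BCL2L2 (12.0), BAK1 (10.5), BID (8.01), BMF (2.12), BCL2L11 (0.955 ± 0.15) and BCL2 (0.669 ± 0.03), with no overlap between neighbours. In shRRM2 the last places changed, with BCL2 at 0.434 ± 0.13 and BCL2L11 lowest at 0.328 ± 0.02 RPKM. In shRRM2/shp16 BCL2L11 (1.50 ± 0.14 RPKM) was again above BCL2 (0.345 ± 0.05), and BID (9.75) stood above BAK1 (8.83). With this gene length, BCL2 and BCL2L11 were thus the least abundant members in all 3 groups. The order was not computed with other gene lengths, such as that of the longest transcript.

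**Figure D3:**
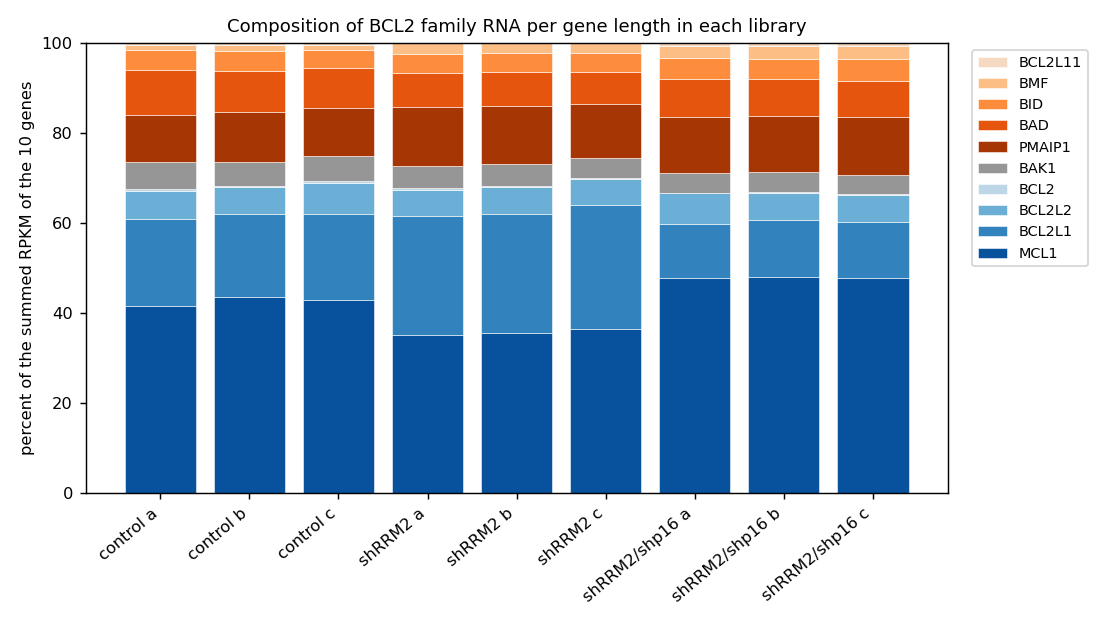
Share of each gene in the summed RPKM of the 10 genes (vertical axis, percent) in each of the 9 libraries (horizontal axis). Blue shades are survival genes, grey is BAK1 and orange shades are BH3-only genes. The BCL2L1 band is widest in shRRM2 at 26.5% to 27.6% and narrowest in shRRM2/shp16 at 12.1% to 12.6%.

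The plot of composition shows BCL2L1 and MCL1 shifting against each other within the survival genes. The ratio of BCL2L1 to MCL1 RPKM was 0.462, 0.425 and 0.445 in control, 0.755, 0.744 and 0.758 in shRRM2, and 0.253, 0.261 and 0.264 in shRRM2/shp16, with no overlap. This ratio was chosen after the values were seen and is a description. BCL2L1 made up 19.2%, 18.5% and 19.1% of the summed RPKM of the family in control, 26.5%, 26.5% and 27.6% in shRRM2, and 12.1%, 12.6% and 12.6% in shRRM2/shp16. MCL1 made up 41.6%, 43.5% and 42.9% in control, 35.0%, 35.6% and 36.4% in shRRM2, and 47.7%, 48.0% and 47.7% in shRRM2/shp16.

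The 4 survival genes together held 66.4% to 69.9% of the family's summed RPKM in every library, and 63.5% to 67.9% when the longest transcript was taken as the gene length. Their share of summed RPKM was 67.5%, 68.3% and 69.2% in control, 67.7%, 68.2% and 69.9% in shRRM2, and 66.7%, 66.8% and 66.4% in shRRM2/shp16. Control and shRRM2 overlapped, and the double hairpin libraries lay below the other 6. The means differed by 0.28 percentage points between shRRM2 and control (two-sided exact permutation test, p = 0.7, adjusted over 3 comparisons 0.7), and by 0.94 points with the longest transcript (exact permutation p = 0.4). Between shRRM2/shp16 and shRRM2 the difference was -1.95 points, and between shRRM2/shp16 and control -1.67 points (exact permutation p = 0.1 each, adjusted 0.15), or -2.90 and -1.97 points with the longest transcript (p = 0.1 each). With 3 libraries against 3 the smallest p this test can give is 0.1.

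The other 13 genes of the BCL2 family on a fixed list included 8 that could be tested. In shRRM2 against control 3 of the 8 were higher and 3 lower by the edgeR test, beside 29% and 31.8% of all tested genes (median log2 fold change 0.13). In shRRM2/shp16 against shRRM2 1 was higher and 4 lower, beside 31.9% and 29.1% (median -0.08), and against control 4 were higher and 4 lower, beside 30% and 32.4% (median 0.05). BIK, HRK, BCL2L10, BCL2L14 and BCL2L15 had too few reads to be tested.

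BCL2A1, a survival gene known as a target of NF-kappaB, was counted at 4, 2 and 7 reads in control, 5, 2 and 6 in shRRM2, and 167, 171 and 138 in shRRM2/shp16. It was near the detection limit in 6 libraries and plainly counted in the other 3, at 8.25 ± 0.74 CPM (SD, n = 3). It passed the low-count filter only through the group in which it is high, so a difference was built into its being tested, and its values are a description. The fitted level of BCL2A1 in shRRM2/shp16 was 31.3-fold that in shRRM2 (log2 fold change 4.97 ± 0.25 SE) and 36.1-fold that in control (5.17 ± 0.25). It is the gene counted as higher on this list against shRRM2 and 1 of the 4 against control. Between shRRM2 and control its log2 fold change was 0.21 ± 0.57 (adjusted p = 0.77).

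The effectors on this list differed from each other. BAX was at 82.0, 71.5 and 82.0 CPM in control, 96.2, 102.6 and 94.4 CPM in shRRM2, and 96.7, 90.0 and 92.8 CPM in shRRM2/shp16. Both hairpin groups were above control, by 0.31 and 0.24 on the log2 scale (edgeR adjusted p = 8.2e-08 and 7e-06), and overlapped each other (-0.07, adjusted p = 0.17). BOK, a BAX-like gene, was at 48.2 ± 2.95, 43.6 ± 0.31 and 29.6 ± 1.47 CPM in control, shRRM2 and shRRM2/shp16 (SD, n = 3 each), and fell by 0.56 in shRRM2/shp16 against shRRM2 (adjusted p = 1.1e-11) and by 0.71 against control (adjusted p = 2e-15). Its fall of 0.15 in shRRM2 against control (adjusted p = 0.011) was lost without control library a (0.166).

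BBC3, which encodes the p53-induced BH3-only protein PUMA, was at 4.44, 5.42 and 3.99 CPM in control, 7.68, 7.50 and 6.54 CPM in shRRM2, and 9.19, 8.02 and 7.58 CPM in shRRM2/shp16. It rose by 0.65 in shRRM2 (edgeR adjusted p = 3.1e-05) and by 0.84 in shRRM2/shp16 over control (adjusted p = 8.9e-08). Between the hairpin groups the value was 0.19 (adjusted p = 0.15). Like PMAIP1, BBC3 was thus above control in all 6 hairpin libraries.

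Among the remaining tested relatives, BNIP3, a mitophagy receptor, fell by 0.45 in shRRM2 against control (edgeR adjusted p = 9.7e-14) and by 0.26 in shRRM2/shp16 against shRRM2 (adjusted p = 3.1e-07). Its relative BNIP3L rose by 0.33 in shRRM2 over control (adjusted p = 1.4e-11). BNIP3L fell by 0.10 in shRRM2/shp16 against shRRM2 (adjusted p = 0.0094), a call lost without shRRM2 library a (0.0662) or shRRM2/shp16 library a (0.0643). BCL2L12 fell by 0.84 in shRRM2 against control (adjusted p = 2.4e-10), and its value of 0.14 in shRRM2/shp16 over shRRM2 (adjusted p = 0.23) became 0.29 (0.0167) without shRRM2/shp16 library b. BCL2L13 fell by 0.19 in shRRM2/shp16 against shRRM2 (adjusted p = 3e-04), and by 0.14 against control (adjusted p = 0.0057), the latter lost without control library a (0.0769).

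The next list holds genes that act below the family at the mitochondrion. Of 10 genes of mitochondrial release and the apoptosome, 2 were higher and 5 lower in shRRM2 against control, 2 higher and 6 lower in shRRM2/shp16 against shRRM2, and 0 higher and 7 lower in shRRM2/shp16 against control by the edgeR test, with medians of -0.16, -0.16 and -0.37. Over all tested genes the higher and lower shares were 29% and 31.8%, 31.9% and 29.1%, and 30% and 32.4%, with medians of 0.00, 0.01 and 0.01, and no list was tested against them. VDAC1, the main channel of the outer mitochondrial membrane, fell by 0.61 in shRRM2/shp16 against shRRM2, from 252 ± 6.72 to 165 ± 6.78 CPM (SD, n = 3 each; adjusted p = 1.3e-20). VDAC2, a channel that binds BAK, fell by 0.46 there (adjusted p = 5.6e-15). VDAC3 fell by 0.63 in shRRM2/shp16 against control (adjusted p = 3.9e-18) and was already below control in shRRM2. Its level was 106.7 ± 2.46, 79.7 ± 0.92 and 68.9 ± 3.15 CPM in control, shRRM2 and shRRM2/shp16 (SD, n = 3 each). HTRA2, a protease that antagonises inhibitors of apoptosis, fell by 0.50 in shRRM2 against control (adjusted p = 1e-06) and rose by 0.50 in shRRM2/shp16 over shRRM2 (adjusted p = 1.3e-06). ENDOG, a mitochondrial nuclease, fell by 0.44 in shRRM2 against control (adjusted p = 4e-04). It was at 9.12 ± 0.64, 6.66 ± 0.28 and 6.90 ± 0.33 CPM in control, shRRM2 and shRRM2/shp16 (SD, n = 3 each).

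Smaller rises on this list rested on few libraries. DIABLO, which releases caspases from their inhibitors, had a log2 fold change of 0.36 in shRRM2 over control (edgeR adjusted p = 0.02), which was lost with DESeq2 (0.139) and without control library a (0.106) or shRRM2 library b (0.069). VDAC2 was 0.10 higher in that comparison (adjusted p = 0.011), which was lost with DESeq2 (0.0814) and without control library c (0.0964). AIFM1, a mitochondrial flavoprotein, was 0.18 higher in shRRM2/shp16 than in shRRM2 (adjusted p = 0.017), which was lost without library a of shRRM2 (0.122) or of shRRM2/shp16 (0.146).

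The caspases, the proteases that carry out apoptosis, gave 1 higher and 3 lower of 7 in shRRM2 against control, 5 higher and 2 lower in shRRM2/shp16 against shRRM2, and 4 higher and 2 lower against control, with medians of -0.19, 0.25 and 0.17. The shares of all tested genes were 29% and 31.8%, 31.9% and 29.1%, and 30% and 32.4%. CASP10 was the 1 higher in shRRM2 and 1 of the 2 lower against shRRM2. It had 8 to 13 reads in control, 14 to 27 in shRRM2 and 10 to 12 in shRRM2/shp16. CASP10 passed the low-count filter only through the group in which it is high, so a difference was built into its being tested. CASP9, the initiator activated by the apoptosome, rose by 0.83 in shRRM2/shp16 over shRRM2, from 7.57 ± 0.75 to 13.4 ± 1.65 CPM (SD, n = 3 each; edgeR adjusted p = 3.1e-09), and by 1.03 over control (adjusted p = 7.4e-12). CASP2 fell by 0.42 in shRRM2 against control (adjusted p = 2.4e-12) and by 0.39 in shRRM2/shp16 against shRRM2 (adjusted p = 1e-10). CASP6 fell by 0.65 in shRRM2 against control (adjusted p = 4.1e-09) and by 0.40 in shRRM2/shp16 against control (adjusted p = 1.6e-05).

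Of 5 inhibitors of apoptosis, 3 were higher and 1 lower in shRRM2 against control, 3 higher and 0 lower in shRRM2/shp16 against shRRM2, and 3 higher and 1 lower against control, with medians of 0.25, 0.11 and 0.24. Among all tested genes, the higher and lower shares were 29% and 31.8%, 31.9% and 29.1%, and 30% and 32.4% in the same order. BIRC5, whose product survivin also acts in mitosis, fell by 1.56 in shRRM2, from 145.5 ± 1.29 to 49.4 ± 1.45 CPM (SD, n = 3 each; edgeR adjusted p = 5.4e-32), and fell by 1.44 in shRRM2/shp16 against control (adjusted p = 1.1e-31). XIAP, which inhibits caspases directly, rose by 0.28 in shRRM2 over control (adjusted p = 3.9e-06). It was at 57.6 ± 3.45, 69.8 ± 4.92 and 68.1 ± 1.14 CPM in control, shRRM2 and shRRM2/shp16 (SD, n = 3 each). BIRC3, a target of NF-kappaB, rose by 0.82 in shRRM2/shp16 over shRRM2 (adjusted p = 1e-06) and by 1.29 over control (adjusted p = 6.1e-11). Its 0.47 in shRRM2 over control (adjusted p = 0.011) was lost with DESeq2 (0.0652) and without control library c (0.0507). BIRC6 rose by 0.14 in shRRM2/shp16 over shRRM2 (adjusted p = 1e-04) and by 0.39 over control (adjusted p = 9.1e-15).

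**Figure D4:**
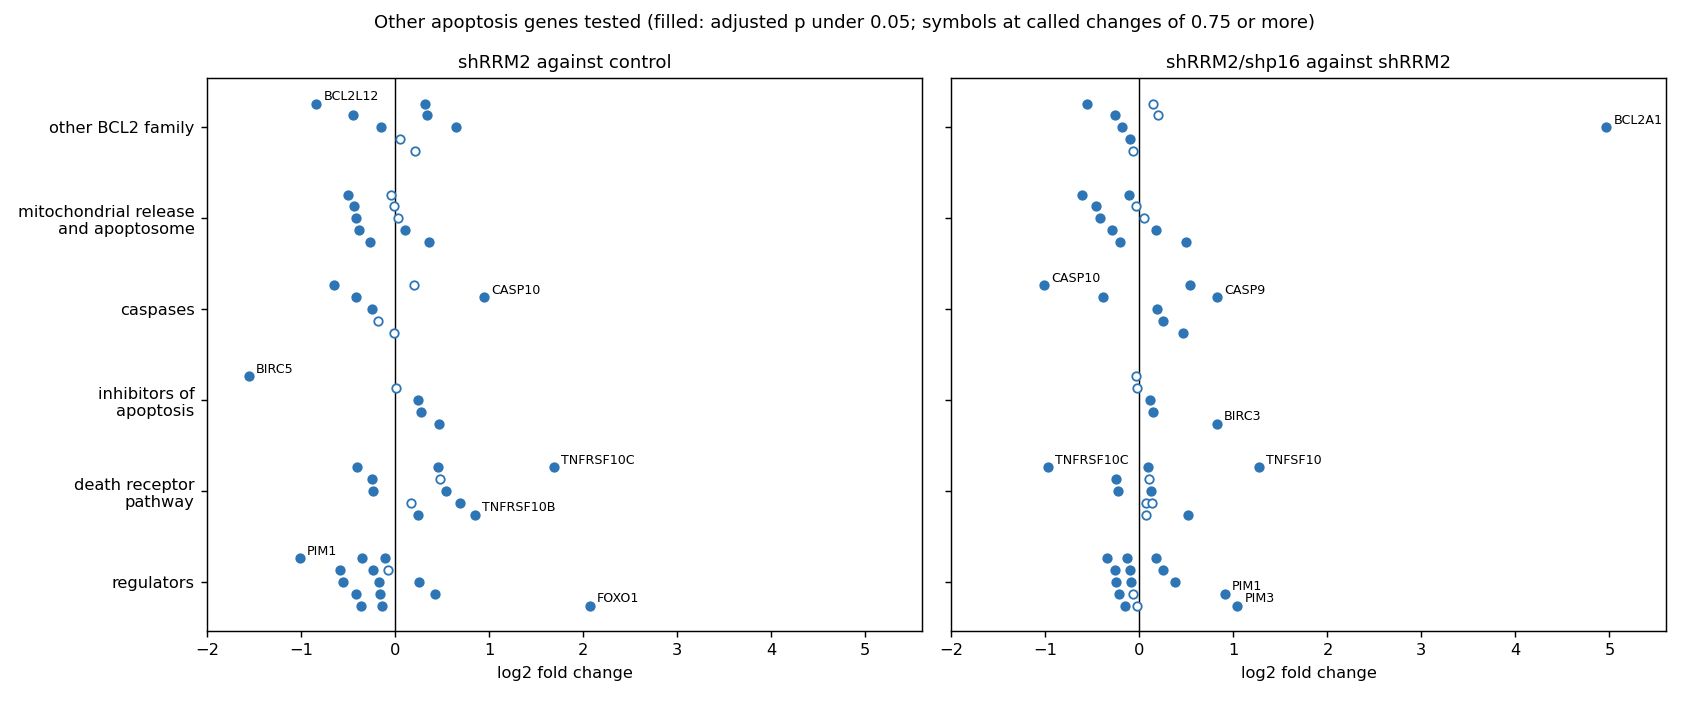
Log2 fold change (horizontal axes) of the tested genes of 6 apoptosis lists (vertical axis), with shRRM2 over control on the left and shRRM2/shp16 over shRRM2 on the right; filled points passed an adjusted p of 0.05 in the edgeR fit. BCL2A1 stands apart at 4.97 in the second panel.

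The plot of the apoptosis lists shows changes in both directions on every list, apart from the inhibitors of apoptosis in shRRM2/shp16 against shRRM2, where 0 of 5 were called lower. The death receptor list gave 6 higher and 3 lower of 11 tested in shRRM2 against control, 4 higher and 3 lower in shRRM2/shp16 against shRRM2, and 8 higher and 3 lower against control, with medians of 0.45, 0.10 and 0.34. The same shares over all tested genes were 29% and 31.8%, 31.9% and 29.1%, and 30% and 32.4%. TNFSF10, 1 of the 8 higher against control, had the highest values on this list in shRRM2/shp16, 1.27 against shRRM2 and 1.75 against control. It was counted at 5 to 7 reads in control, 6 to 10 in shRRM2 and 17 to 24 in shRRM2/shp16. Like BCL2A1, it passed the low-count filter only through the group in which it is high, so its values are a description. TNFRSF10B, a receptor for TRAIL that is a p53 target, rose by 0.84 in shRRM2 over control, from 140.1 ± 1.85 to 252 ± 1.78 CPM (SD, n = 3 each; edgeR adjusted p = 3.5e-26), and by 0.12 in shRRM2/shp16 over shRRM2 (adjusted p = 0.00036). The decoy receptor TNFRSF10C rose by 1.69 in shRRM2 over control (adjusted p = 1.8e-18) and fell by 0.97 in shRRM2/shp16 against shRRM2 (adjusted p = 2.8e-12).

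CFLAR, which blocks caspase-8 activation at death receptors, rose by 0.51 in shRRM2/shp16 over shRRM2, from 103.5 ± 0.94 to 148 ± 4.57 CPM (SD, n = 3 each; edgeR adjusted p = 1.6e-16), and by 0.97 over control (adjusted p = 4.5e-26). FAS, a death receptor, fell by 0.25 in shRRM2/shp16 against shRRM2 (adjusted p = 1.4e-05). Its level was 41.4 ± 0.15 CPM in control, 60.3 ± 1.65 in shRRM2 and 50.7 ± 2.82 in shRRM2/shp16 (SD, n = 3 each). Every library of both hairpin groups was thus above control. The adaptor FADD fell by 0.40 in shRRM2 (adjusted p = 1.7e-08) and by 0.34 in shRRM2/shp16 (adjusted p = 3.3e-07) against control, and the receptor TNFRSF1A by 0.25 (adjusted p = 2.1e-08) and 0.18 (adjusted p = 1.1e-05).

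Genes that regulate BCL2 family genes or proteins gave 3 higher and 11 lower of 15 in shRRM2 against control, 5 higher and 8 lower in shRRM2/shp16 against shRRM2, and 3 higher and 8 lower against control, with medians of -0.18, -0.09 and -0.19, where the higher and lower shares of all tested genes were 29% and 31.8%, 31.9% and 29.1%, and 30% and 32.4%. The kinases PIM1 and PIM3, which can phosphorylate BAD, fell by 1.01 and 0.59 in shRRM2 against control (edgeR adjusted p = 1e-12 and 1.5e-08) and rose by 0.91 and 1.04 in shRRM2/shp16 over shRRM2 (adjusted p = 2.7e-11 and 3.5e-16). FOXO1, a transcription factor of the FOXO class, rose by 2.07 in shRRM2 over control, from 1.06 ± 0.16 to 4.51 ± 0.56 CPM (SD, n = 3 each; adjusted p = 2.1e-12). FOXO3, of the same class, had far more reads, at 82.25 ± 4.46 CPM in control, 77.5 ± 0.98 in shRRM2 and 69.5 ± 2.10 in shRRM2/shp16. Whether either gene has a part in the level of BCL2L11 was not tested. In shRRM2/shp16 FOXO1 was 1.72 above control (adjusted p = 4.7e-10). Its -0.35 in shRRM2/shp16 against shRRM2 (adjusted p = 0.048) was lost with DESeq2 (0.233), with the replicate letter as a block (0.0541), without control library b (0.051), without shRRM2 library b (0.136) or c (0.15), and without shRRM2/shp16 library a (0.153), b (0.073) or c (0.0644).

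FBXW7, a ubiquitin ligase subunit that targets MCL1, rose by 0.42 in shRRM2 over control (edgeR adjusted p = 1.5e-08). It was at 27.45 ± 0.55, 36.8 ± 0.27 and 33.5 ± 1.21 CPM in control, shRRM2 and shRRM2/shp16 (SD, n = 3 each). PIM3 was 0.45 above control in shRRM2/shp16 (adjusted p = 1.6e-07). AKT1, a kinase that phosphorylates BAD, fell by 0.46 there (adjusted p = 8.5e-17), and DYNLL1, the dynein light chain that holds BIM, fell by 0.52 (adjusted p = 2.2e-18). Both were also below control in shRRM2. AKT1 was at 234 ± 5.06, 181 ± 4.59 and 171 ± 4.44 CPM in control, shRRM2 and shRRM2/shp16 (SD, n = 3 each). DYNLL1 was at 246 ± 1.45, 184.5 ± 9.91 and 171 ± 1.34 CPM in the same order. YWHAB, a 14-3-3 protein of the class that binds phosphorylated BAD, fell by 0.26 in shRRM2/shp16 against shRRM2 (adjusted p = 5e-11).

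For each member, the gene with the most similar course over the 9 libraries was found by the Pearson correlation of log2 CPM among 9935 genes whose mean log2 CPM reached 3. All points share the 3 groups, so these values describe the group pattern and its likeness only. BCL2L1 was most like GALNT5 (r = 0.998), MCL1 like FAM102B (0.995), BCL2 like MAPK9 (0.975), and BCL2L2 like RCBTB2 (0.843). BCL2L11 was most like CLMP (0.992), BMF like BDNF (0.998), PMAIP1 like ZNF264 (0.992), BID like CACFD1 (0.980), BAD like TUFM (0.980) and BAK1 like PXYLP1 (0.965). The likeness was weakest for BCL2L2.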

How the data were processed

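The authors deposited read counts per Ensembl gene for each of 9 libraries; TopHat2 2.0.9, Cufflinks 2.0.2, Cuffdiff and the build GRCh38 are named in the submitters' processing notes, with no strand setting. The authors also deposited a table of log2 RPKM values, found from the counts to be log2(x + 1) with x in reads per base rather than per kilobase, with a log2 fold change, q-value and p-value of shRRM2/shp16 over shRRM2, per the file headers. Rows of the count files that name no gene were left out; reads outside genes were 17.6% to 28.8% of unique reads and differed by group. There were 0 columns of values that matched no sample.

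Counts were fitted with edgeR 4.0.16 in R 4.3.3 (filterByExpr, TMM scaling, quasi-likelihood test, 9 libraries, 6 residual degrees of freedom), two-sided, with Benjamini-Hochberg adjustment over 16561 genes and a threshold of 0.05; the fit was tested on simulated data. CPM values use the TMM-scaled library size. RPKM values in the text divide these by the gene length behind the deposited RPKM values. Positions are from GENCODE release 29. Intervals are at 95%.

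Named were the 10 members, the targeted genes, the tested genes of the other BCL2 family list, and, of each other list, the 2 highest and 2 lowest called changes among genes whose mean log2 CPM reached 1 and whose groups did not overlap. One result under this rule is not reported here. The members and lists were chosen with earlier results of these data known. Alternatives were RLE size factors, DESeq2 1.42.0, 2 other filters, 6 libraries only, a replicate block, each library left out, and limma 3.58.1 on the deposited RPKM values. Replicate letters were taken not to pair the libraries. Counting error alone understates the error, since reads carry no molecular identifiers.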

Additional observations from a re-analysis of the deposited data

How the results depend on the processing

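Over 20 alternatives the members called numbered 5 to 7, 5 to 7 and 7 to 9 in shRRM2 against control, shRRM2/shp16 against shRRM2 and shRRM2/shp16 against control. Of 600 values of single members under an alternative, 537 kept their direction and their side of the threshold, 34 lost a call, 15 gained one and 14 changed sign, none of the last being a call. The calls of BCL2L11, BMF and PMAIP1 held in all alternatives, as did those of BCL2L1 apart from shRRM2/shp16 against control with limma on the log2 RPKM values as deposited (adjusted p = 0.092). BCL2 in shRRM2 against control was not called with limma on log2(RPKM + 0.1) (0.0608), nor BAD (0.0599) or MCL1 (0.451) there. Without the column of shRRM2 library c, which does not match its count file, BAD (0.02) and MCL1 (0.0349) were called in that fit and BCL2 was not (0.0963). The cause of the BCL2 loss was not tested. Depth limits BCL2 and BCL2L11 most.

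Sign changes were as follows. BCL2L2 in shRRM2 against control was -0.0037 with DESeq2, -0.027 with no low-count filter, and -0.023 to 0.069 with 1 library left out. PMAIP1 in shRRM2/shp16 against shRRM2 was -0.0071 with RLE size factors, -0.0070 with at least 10 counts in every library, -0.0050 with only the 6 libraries compared, and -0.030 to 0.038 with 1 library left out. With limma, BAD in shRRM2/shp16 against control was 0.00067 on the values as deposited, with or without the column of shRRM2 library c, 0.040 with a pseudocount of 0.1, with or without that column, and 0.038 with a pseudocount of 1. BAX in shRRM2/shp16 against shRRM2 was 0.0024 as deposited, 0.077 with a pseudocount of 0.1 and 0.075 with 1. BCL2A1 in shRRM2 against control was -1.08e-05 as deposited and -0.010 with a pseudocount of 0.1, both without that column, and -0.071 to 0.80 with 1 library left out.

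With the replicate letter as a block, 7, 7 and 8 members were called in the 3 comparisons, and the FOXO1 call in shRRM2/shp16 against shRRM2 was lost (adjusted p = 0.0541). Deviations of libraries with the same letter correlated at -0.0198 to 0.0486.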

Other observations

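In the authors' deposited table, 8 of the 9 RPKM columns equal the depth-scaled counts over one length per gene for 100% of 12684 genes, at a tolerance of 1%. The column of shRRM2 library c does so for 5.11% of them. For BCL2L1 that column gives 38.4 RPKM where the count file gives 56.4, and libraries a and b give 54.4 and 52.9. For MCL1 it gives 80.5 where the count file gives 74.5, and for BCL2L11 0.533 where the count file gives 0.307. The RPKM values here are scaled by total counts, without TMM factors.

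The summed RPKM of the 10 family members was 184, 188 and 191 in control, 206, 202 and 206 in shRRM2, and 202, 209 and 204 in shRRM2/shp16, so the hairpin groups overlapped and lay above control. The 5 BH3-only genes summed to 48.7, 49.8 and 47.8 RPKM in control, 56.3, 54.1 and 52.6 in shRRM2, and 58.7, 59.9 and 60.0 in shRRM2/shp16. Without MCL1, the survival genes held 44.3%, 43.9% and 46.1% of the remaining RPKM in control, 50.3%, 50.7% and 52.6% in shRRM2, and 36.3%, 36.2% and 35.8% in shRRM2/shp16. These sums were chosen after the values were seen and were not tested.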
